A study of Mus musculus with 8 samples.

Results

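UNC0642, an inhibitor of the H3K9 methyltransferases G9a and GLP, was given to Setdb1 WT mouse embryonic stem cells (mESCs), and its effect was read from Hi-C compartment scores in 100-kb bins. The members are the 23990 autosomal bins that carry a non-zero score in both Setdb1 WT and Setdb1 WT + UNC, out of 24005 bins scored in any of the 8 libraries of the study. Comparisons with other libraries used the 23972 bins scored in all 8. Setdb1 WT is the Setdb1 conditional KO line left untreated, so SETDB1 is present in both libraries of the contrast, and Setdb1 WT + UNC is the same line given 2 µM UNC0642 for 3 days. The other Setdb1 libraries are Setdb1 KO (800 nM 4-hydroxytamoxifen for 5 days) and Setdb1 KO + UNC (800 nM 4-hydroxytamoxifen for 2 days, then 2 µM UNC0642 for 3 days). The Suv39h libraries are the clone ADF1-26 (Suv39h WT) and the clone ADF157 (Suv39h DKO, lacking Suv39h1 and Suv39h2), each without and with 2 µM UNC0642 for 3 days. Each line is a single clone, and each group has 1 set of scores, so the UNC0642 change in Setdb1 WT has no replicate check from these files and is given as values without a test. Across bins the 2 libraries correlated at r = 0.978. Rounded to 2 digits, this equals the r that the study lists between Hi-C repeats of either group. For single bins the files give no spread between repeats, so changes of 0.01 were not set against it. The treated library was as close to Suv39h WT + UNC and Suv39h DKO + UNC (both r = 0.978) as to its own control. It was less close to Suv39h DKO (0.975), Suv39h WT (0.973), Setdb1 KO (0.972) and Setdb1 KO + UNC (0.967). The untreated control had its nearest neighbours in Setdb1 KO (r = 0.989) and Setdb1 KO + UNC (0.988).

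G9a and GLP act as a heterodimer that places H3K9me2, a mark of repressed chromatin found over long stretches of the genome, often at the nuclear periphery. Chromosomes fold so that active regions (A compartment) contact each other and inactive regions (B compartment) contact each other, and the compartment score is the leading pattern of those contacts along a chromosome. A positive score marks A and a negative score marks B. The score has no unit. A bin was called rising or falling where its score was higher or lower in Setdb1 WT + UNC by at least 0.01, which is a size and not a test. Every chromosome averages 0 in every library, so the values describe redistribution along a chromosome and cannot show a general shift.

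The sequences before 4 genes that start in the regions named further on are shown first, to give those regions a concrete form. Each is the 250 bases before the RefSeq gene start, 5′ to 3′ on the gene's strand (GRCm38.p6), and capitals mark GATC, the letters cut by DpnII in this Hi-C protocol. Trpc7 (chr13:56895790-56896039, minus strand) lies in a rising run shared with the Suv39h libraries, Irx4 (chr13:73260247-73260496, plus strand) in a rising run that Suv39h WT did not share, and Zfp808 (chr13:62129640-62129889, plus strand) and Zfp935 (chr13:62466813-62467062, minus strand) in the longest falling run of the following class.
Trpc7: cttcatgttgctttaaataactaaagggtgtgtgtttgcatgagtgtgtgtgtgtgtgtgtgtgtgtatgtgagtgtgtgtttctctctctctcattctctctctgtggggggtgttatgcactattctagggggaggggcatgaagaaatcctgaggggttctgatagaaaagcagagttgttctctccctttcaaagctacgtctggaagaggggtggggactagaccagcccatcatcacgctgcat
Irx4: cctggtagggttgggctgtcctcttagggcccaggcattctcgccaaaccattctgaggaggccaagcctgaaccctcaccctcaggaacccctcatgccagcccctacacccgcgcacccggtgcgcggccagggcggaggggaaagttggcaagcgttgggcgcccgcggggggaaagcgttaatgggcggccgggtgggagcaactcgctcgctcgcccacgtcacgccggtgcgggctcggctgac
Zfp808: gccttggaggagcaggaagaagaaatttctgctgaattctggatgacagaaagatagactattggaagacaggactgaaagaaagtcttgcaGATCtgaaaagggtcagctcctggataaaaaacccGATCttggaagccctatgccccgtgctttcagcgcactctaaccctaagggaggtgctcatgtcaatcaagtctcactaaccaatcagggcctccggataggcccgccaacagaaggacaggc
Zfp935: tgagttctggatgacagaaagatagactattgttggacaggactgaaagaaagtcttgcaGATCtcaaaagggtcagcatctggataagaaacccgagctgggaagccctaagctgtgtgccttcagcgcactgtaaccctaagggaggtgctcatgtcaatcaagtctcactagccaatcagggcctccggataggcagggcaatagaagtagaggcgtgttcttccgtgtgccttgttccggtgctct
GATC occurs 2 times in the Zfp808 window, 1 time in the Zfp935 window and 0 times in the other 2. Of 32851 RefSeq windows of this length, 41.9% hold it, and the letters read the same on both strands. The CG dinucleotide occurs 22 times before Irx4, 6 times before Zfp935, 5 times before Zfp808 and 2 times before Trpc7, against a median of 6 over all windows. Genes of the runs below are read from GENCODE, whose starts differ from these RefSeq starts. The Zfp935 window lies inside its GENCODE gene (chr13:62453715-62558511, minus strand), and the other windows overlap the starts of theirs. The scores cover 100 kb and give no value for a single promoter.

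Most of the genome moved little on UNC0642 in Setdb1 WT. The change in score had a median of 0.000219, quartiles of -0.00314 and 0.00350, and an SD across bins of 0.00579, and 67.4% of bins stayed within 0.005 of their untreated score. The rising bins numbered 841 (3.51% of all bins) and the falling bins 1108 (4.62%). With scores averaged over 3 adjacent bins the numbers were 353 and 628. At the limit of 0.01 the nearest bins inside and outside changed by 0.010002 and 0.00999972, so membership of the 2 sets has no natural gap. The SD of the UNC0642 change was 0.00395 in Setdb1 KO, 0.00488 in Suv39h WT and 0.00546 in Suv39h DKO.

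The change in Setdb1 WT ran along the chromosome in blocks. Across 23920 pairs of adjacent bins, the changes of neighbours correlated at r = 0.480, against 0.0764 for UNC0642 in Setdb1 KO, 0.0654 in Suv39h WT and 0.166 in Suv39h DKO. At a distance of 1000 kb the correlation was 0.205 in Setdb1 WT and 0.0170, 0.0560 and 0.0845 in the other backgrounds. These are descriptions across bins of the same libraries, which are not independent. Of the rising bins 319 lay in 109 runs of at least 2 adjacent bins, the longest of 14, and of the falling bins 569 lay in 193 runs, the longest of 13.

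Whether these changes differ from those in the other backgrounds was tested in limma, with the spread of the UNC0642 change among the other 3 backgrounds as the error. This interaction test called 0 of 23972 bins (0.00% called), with a lowest adjusted p of 0.117, while 952 bins were higher and 1122 lower in Setdb1 WT at an unadjusted p under 0.05. Leaving out both Suv39h WT libraries gave 7 downward calls with a lowest adjusted p of 0.026. On simulated scores this test recovered 0% of added changes of 0.02, so a count of 0 places no useful limit on a background-specific change.

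The libraries were then set against the difference between the untreated lines, because Setdb1 WT + UNC leaned towards the Suv39h libraries. A changed bin was called following where Suv39h WT minus Setdb1 WT had the same sign and was at least 0.01, partly following where it had the same sign and lay from 0.005 to under 0.01, and not following otherwise. Setdb1 WT is the control of both differences and enters both with the same sign, so the class shares are a description only. Of the rising bins 300 (35.7%) followed, 265 partly followed and 276 did not, 97 of the last with the opposite sign. Of the falling bins 482 (43.5%) followed, 306 partly followed and 320 did not, 112 of them with the opposite sign. Over all bins, Suv39h WT was higher than Setdb1 WT by at least 0.01 in 5.68% and lower in 6.27%.

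In following bins the treated Setdb1 WT library took up the level of the Suv39h lines. The median score of the 300 rising following bins was -6.28e-05 in Setdb1 WT, 0.00252 in Setdb1 KO, 0.000950 in its UNC0642-treated counterpart, and 0.0141 in Setdb1 WT + UNC. In the Suv39h libraries it was 0.0141 in WT, 0.0116 in WT + UNC, 0.0151 in DKO and 0.0144 in DKO + UNC. The 482 falling following bins had medians of 0.00855, 0.0109 and 0.0114 in Setdb1 WT, Setdb1 KO and Setdb1 KO + UNC, -0.00805 in Setdb1 WT + UNC, and -0.00735, -0.00631, -0.00603 and -0.00449 in Suv39h WT, WT + UNC, DKO and DKO + UNC. Setdb1 WT + UNC thus stood with the 4 Suv39h libraries in both sets, which the rule fixes for Suv39h WT and not for the other 3. Setdb1 KO + UNC stood with Setdb1 WT and Setdb1 KO. That library received the inhibitor after 4-hydroxytamoxifen and lacks SETDB1, and the cause of its position was not tested. The class rule used Setdb1 WT, Setdb1 WT + UNC and Suv39h WT, and it used none of the other 5 libraries.

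In bins that did not follow, the rule itself places Setdb1 WT + UNC away from Setdb1 WT and Suv39h WT, so its position against these libraries is a description of the selection. The median of the 276 rising bins was -0.00141 in Setdb1 WT before and 0.0110 after UNC0642, while the other 6 libraries had medians between -0.00321 (Setdb1 KO + UNC) and 0.00586 (Suv39h DKO + UNC). The 320 falling bins had a median of 0.000225 in Setdb1 WT before and -0.0121 after UNC0642, while the other 6 had medians between -0.00405 (Suv39h DKO + UNC) and 0.00236 (Setdb1 KO + UNC).

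**Figure D1:**
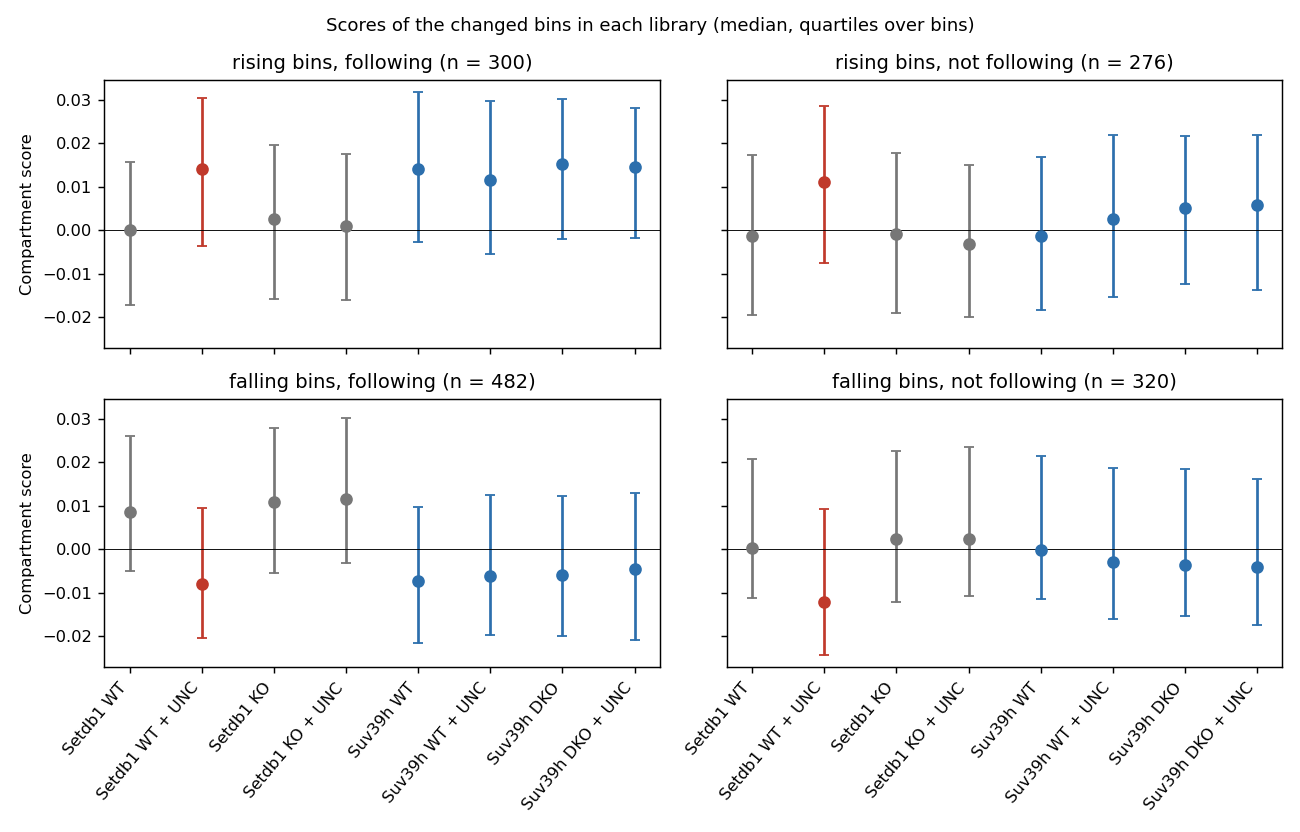
Median compartment score (points) with quartiles over bins (bars) in each of the 8 libraries, for rising and falling bins that follow or do not follow Suv39h WT minus Setdb1 WT. In following bins Setdb1 WT + UNC (red) lies at the level of the Suv39h libraries (blue), which the rule fixes for Suv39h WT. In the 276 rising and 320 falling bins that do not follow, the selection itself sets it away from Setdb1 WT and Suv39h WT.

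The line difference was tested in the 5 libraries that neither the change nor the class rule used, 3 Suv39h (WT + UNC, DKO, DKO + UNC) against 2 Setdb1 (KO, KO + UNC). Both Setdb1 libraries of this test received 4-hydroxytamoxifen and lack SETDB1, and 2 of the 3 Suv39h libraries lack SUV39H1 and SUV39H2, so line and genotype cannot be told apart in what is called the line test here. limma called 1203 bins higher (5.02% called) and 1303 lower (5.44% called) in the Suv39h libraries at an adjusted p under 0.05. Among the rising bins it called, in the same direction, 165 (55.0%) of those that followed, 76 (28.7%) of those that partly followed and 53 (19.2%) of those that did not. Among the falling bins it called 336 (69.7%), 119 (38.9%) and 65 (20.3%). Leaving out 1 of the 5 libraries at a time moved the count from 53 to 165 for rising following bins and from 162 to 330 for falling following bins, with the lowest values without Setdb1 KO + UNC and the next lowest, 88 and 203, without Setdb1 KO. For bins that did not follow, the count moved from 6 to 58 for rising and from 9 to 66 for falling bins, and for the rising ones it was 10 without Setdb1 KO, 34 without Suv39h DKO and 35 without Suv39h DKO + UNC. The falling count without Setdb1 KO was 22. For partly following bins it moved from 11 to 84 for rising bins (11 without Setdb1 KO + UNC, 21 without Setdb1 KO, 50 without Suv39h DKO) and from 36 to 112 for falling bins (36 without Setdb1 KO + UNC and 45 without Setdb1 KO). Calls over all 23972 bins moved too, to 139 higher and 314 lower without Setdb1 KO + UNC and 279 and 432 without Setdb1 KO. They were 783 and 987 without Suv39h DKO, and 1055 and 1226 without Suv39h DKO + UNC. With all 5 libraries the 6 shares lay above the background, including those of bins that did not follow Suv39h WT. By size alone, the mean of the unused Suv39h libraries was higher by at least 0.01 in 169 (56.3%) of the rising following bins and 52 (18.8%) of the rising bins that did not follow, against 5.00% of all bins, and lower in 360 (74.7%) and 67 (20.9%) of the falling ones, against 5.62%. The 3 Suv39h libraries lay above the 2 Setdb1 libraries without overlap in 231 (77.0%) of the rising following bins and 128 (46.4%) of those that did not follow, against 22.7% of all bins, and below them in 414 (85.9%) and 148 (46.3%) of the falling ones, against 20.8%.

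**Figure D2:**
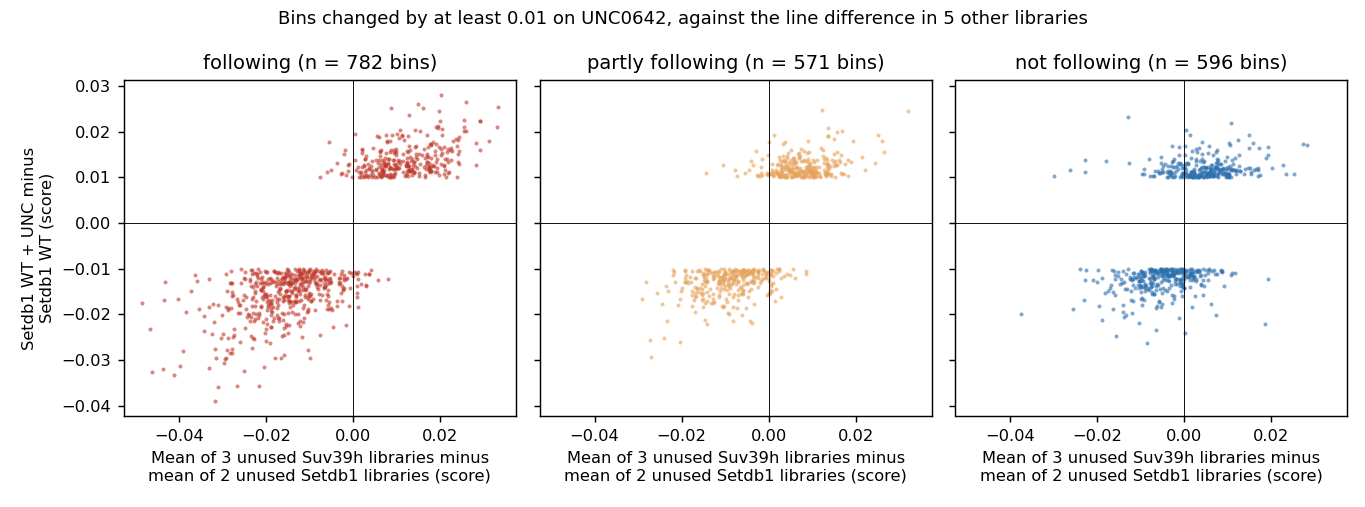
UNC0642 change in Setdb1 WT (vertical axis, score) against the mean of 3 Suv39h minus the mean of 2 Setdb1 libraries not used for the classes (horizontal axis, score), 1 point for each changed bin. Most following bins fall in the lower left and upper right (14 rising and 19 falling ones do not), with median line differences of 0.0119 for rising and -0.0150 for falling bins, and bins that do not follow lie nearer to 0, at 0.00447 and -0.00491.

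The UNC0642 changes in the other 3 backgrounds share no library with the change in Setdb1 WT. Of the 841 rising bins, 53 (6.30%) also rose by at least 0.01 in Suv39h WT, against 2.26% of all bins, and 40 (4.76%) in Suv39h DKO, against 3.04%. Of the 1108 falling bins, 65 (5.87%) also fell in Suv39h WT, against 2.53%, and 82 (7.40%) in Suv39h DKO, against 3.69%. Some bins changed the opposite way. Of the rising bins 27 (3.21%) fell in Suv39h WT, against 2.53% of all bins, and 51 (6.06%) fell in Suv39h DKO, against 3.69%, more than the 40 that rose there. Of the falling bins 34 (3.07%) rose in Suv39h WT, against 2.26%, and 41 (3.70%) rose in Suv39h DKO, against 3.04%. Without chromosomes 13 and 18, the rising bins rose in 29 of 584 (4.97%, against 2.08% of all bins there) and fell in 17 (2.91%, against 2.35%) in Suv39h WT, and rose in 25 (4.28%, against 2.75%) and fell in 22 (3.77%, against 3.32%) in Suv39h DKO. The falling bins there fell in 47 of 833 (5.64%, against 2.35%) and rose in 26 (3.12%, against 2.08%) in Suv39h WT, and fell in 59 (7.08%, against 3.32%) and rose in 21 (2.52%, against 2.75%) in Suv39h DKO. Over all chromosomes, Suv39h WT rose in 3 rising following bins (1.00%) and 40 that did not follow (14.5%). It fell in 9 falling following bins (1.87%) and 43 that did not follow (13.4%). Untreated Suv39h WT enters both the class rule and this change, so that split is a description. In Suv39h DKO, 17 rising bins that did not follow rose and 13 fell, and 33 falling ones fell and 8 rose. Of following bins there, 9 rising ones rose and 21 fell, and 31 falling ones fell and 24 rose. Every share covered a small minority of the members.

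In Setdb1 KO, as for the rising bins in Suv39h DKO, changes of the opposite direction outnumbered those of the same direction. Of the rising bins 4 (0.476%) rose with UNC0642 in Setdb1 KO, against 0.755% of all bins, and 44 (5.23%) fell, against 0.934%. Of the falling bins 15 (1.35%) fell, against 0.934%, and 50 (4.51%) rose, against 0.755%. Without chromosomes 13 and 18 the opposite counts were 14 of 584 rising bins (2.40%, against 0.643% of all bins there) and 19 of 833 falling bins (2.28%, against 0.511%), and 12 falling bins (1.44%, against 0.643%) fell in both. The difference between backgrounds in these bins was not tested beyond the interaction test above.

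The score crossed 0 upward, into A, in 641 bins and downward, into B, in 587. In 456 (71.1%) of the upward bins the mean of the 3 unused Suv39h libraries was positive, and in 137 (21.4%) the mean of the 2 unused Setdb1 libraries was. In 325 (55.4%) of the downward bins the Suv39h mean was negative, and in 124 (21.1%) the Setdb1 mean was. The bins were chosen by the side on which Setdb1 WT lay, so these shares are a description. Over all bins 44.5% to 46.3% were A in each library, and the rest were B. The 55.4% of downward bins with a negative Suv39h mean is thus near the share of all bins that were B. Most crossings were small, and 154 of the upward and 251 of the downward bins changed by 0.01 or more.

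The longest regions gave the clearest examples. Within each direction and class, the 3 longest runs of adjacent bins were taken, and the protein-coding genes overlapping them were read from the GENCODE annotation. Run values below are mean scores over the bins of the run.

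The longest falling run that followed covered chr13:61600001-62700000 (11 bins) and holds Zfp808, Zfp935 and Zfp934, which encode zinc finger proteins, together with Gm3604, Gm49359, 6720489N17Rik and Platr25. Its score was 0.0189 in Setdb1 WT, 0.0217 in Setdb1 KO, 0.0246 in its UNC0642-treated counterpart, and -0.00144 in Setdb1 WT + UNC. In the Suv39h libraries it was -0.00564 in WT, -0.00664 in WT + UNC, -0.00654 in DKO and -0.00493 in DKO + UNC. The run was A in the 3 other Setdb1 libraries and slightly B in the remaining 5. The change of -0.0204 ran from -0.0313 to -0.0105 over its bins, and limma called all 11 bins lower in the unused Suv39h libraries (lowest adjusted p 0.000150).

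The run at chr13:3100001-3900000 (8 bins), at the start of the scored sequence, holds Gdi2, a regulator of Rab GTPases, Net1, an exchange factor for RhoA, the calmodulin-related genes Calml3, Calm4 and Calm5, and Fam208b and Asb13. It scored 0.0206 in Setdb1 WT, 0.0234 in Setdb1 KO, 0.0257 in its UNC0642-treated counterpart, and -0.00442 in Setdb1 WT + UNC. The Suv39h values were 0.00298 in WT, -0.00187 in WT + UNC, -0.00103 in DKO and 4.68e-05 in DKO + UNC, so Setdb1 WT + UNC was the lowest of the 8. The mean change was -0.0250, and 8 of 8 bins were called in the line test (lowest adjusted p 0.000119). A further falling run, chr13:75300001-76200000 (9 bins, change -0.0144), holds genes including Ell2, which encodes a transcription elongation factor, and Glrx, went from a mean of -0.00962 to -0.0240, and had 7 bins called (lowest adjusted p 0.000699).

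Among rising runs that followed, chr13:57400001-57900000 (5 bins) lies almost wholly inside Spock1, which encodes a secreted proteoglycan (chr13:57421195-57908332, minus strand). Its score was 0.0142 in Setdb1 WT, 0.0137 in Setdb1 KO, 0.00781 in its UNC0642-treated counterpart, and 0.0345 in Setdb1 WT + UNC. The Suv39h libraries held 0.0347 in WT, 0.0363 in WT + UNC, 0.0375 in DKO and 0.0352 in DKO + UNC. The lines separated without overlap, with Setdb1 WT + UNC just under the Suv39h values, and 5 of 5 bins were called (lowest adjusted p 0.000434). The bin chr13:57700001-57800000 in this run had the largest rise of all, from 0.00848 to 0.0365. The nearby run chr13:56800001-57200000 (4 bins) covers the start of Trpc7, a cation channel gene, and went from 0.00644 to 0.0282, with 4 of 4 bins called (lowest adjusted p 0.000258). The run chr15:74000001-74500000 (5 bins) overlaps no protein-coding gene and went from 0.00887 to 0.0225, against 0.0218 to 0.0274 in the Suv39h libraries, with 5 of 5 bins called (lowest adjusted p 0.00204).

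The largest fall of a single bin was at chr18:74300001-74400000, which overlaps Cfap53, a gene for a protein of cilia. It scored 0.0504 in Setdb1 WT, 0.0545 in Setdb1 KO, 0.0625 in its UNC0642-treated counterpart, and 0.0114 in Setdb1 WT + UNC, a change of -0.0390. The Suv39h values were 0.0214 in WT, 0.0206 in WT + UNC, 0.0277 in DKO and 0.0320 in DKO + UNC, all between the treated and untreated Setdb1 WT values, and the bin was called in the line test (adjusted p 0.000776).

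Runs that did not follow were shorter, with at most 4 bins rising and 3 falling. The longest rising one, chr14:30000001-30400000, covers most of Cacna1d, a voltage-gated calcium channel gene, with Chdh, Il17rb and Actr8 at its edge. It scored 0.0155 in Setdb1 WT, 0.0159 in Setdb1 KO, 0.0150 in its UNC0642-treated counterpart, and 0.0296 in Setdb1 WT + UNC. The Suv39h values were 0.0121 in WT, 0.0178 in WT + UNC, 0.0181 in DKO and 0.0241 in DKO + UNC, so Setdb1 WT + UNC was the highest of the 8, and 1 of 4 bins was called in the line test (lowest adjusted p 0.0305). The run chr14:25000001-25300000, without a protein-coding gene, went from 0.0166 to 0.0290, and its other 6 libraries ran from 0.00875 to 0.0214.

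Irx4, a homeobox gene of heart development, lies in the rising run chr13:73100001-73300000 (2 bins), where the class rests on 1 library. Its score was 0.0180 in Setdb1 WT, 0.0363 in Setdb1 WT + UNC and 0.0205 in Suv39h WT, but 0.0311 in its treated counterpart and 0.0376 and 0.0333 in the untreated and treated DKO clone, and both bins were called in the line test (lowest adjusted p 0.00163). The other Setdb1 libraries held 0.0130 in Setdb1 KO, 0.0119 in its UNC0642-treated counterpart.

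Of the falling runs that did not follow, chr18:7400001-7700000 (3 bins) lies largely in Mpp7, a gene for a scaffold protein of cell junctions. It scored 0.0116 in Setdb1 WT before and -0.00122 after UNC0642, against 0.00770 to 0.00957 in the Suv39h libraries and 0.0172 to 0.0185 in the other Setdb1 libraries. The treated library was the lowest, and 1 bin was called (lowest adjusted p 0.0115). The run chr15:20000001-20300000 (3 bins), without a protein-coding gene, scored -0.0224 in Setdb1 WT before and -0.0346 after UNC0642, while the other 6 libraries ran from -0.0260 to -0.0207. The lines did not separate there (lowest adjusted p 0.289), and the treated library stood below all others. The run chr1:11200001-11500000 (3 bins), with Prex2, an exchange factor for Rac, and A830018L16Rik, went from 0.0170 to 0.00632. In Suv39h WT it went from 0.0209 to 0.0105 with UNC0642, a change of -0.0104 against -0.0107 in Setdb1 WT, while it changed by 0.00564 in Setdb1 KO and -0.00481 in Suv39h DKO.

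**Figure D3:**
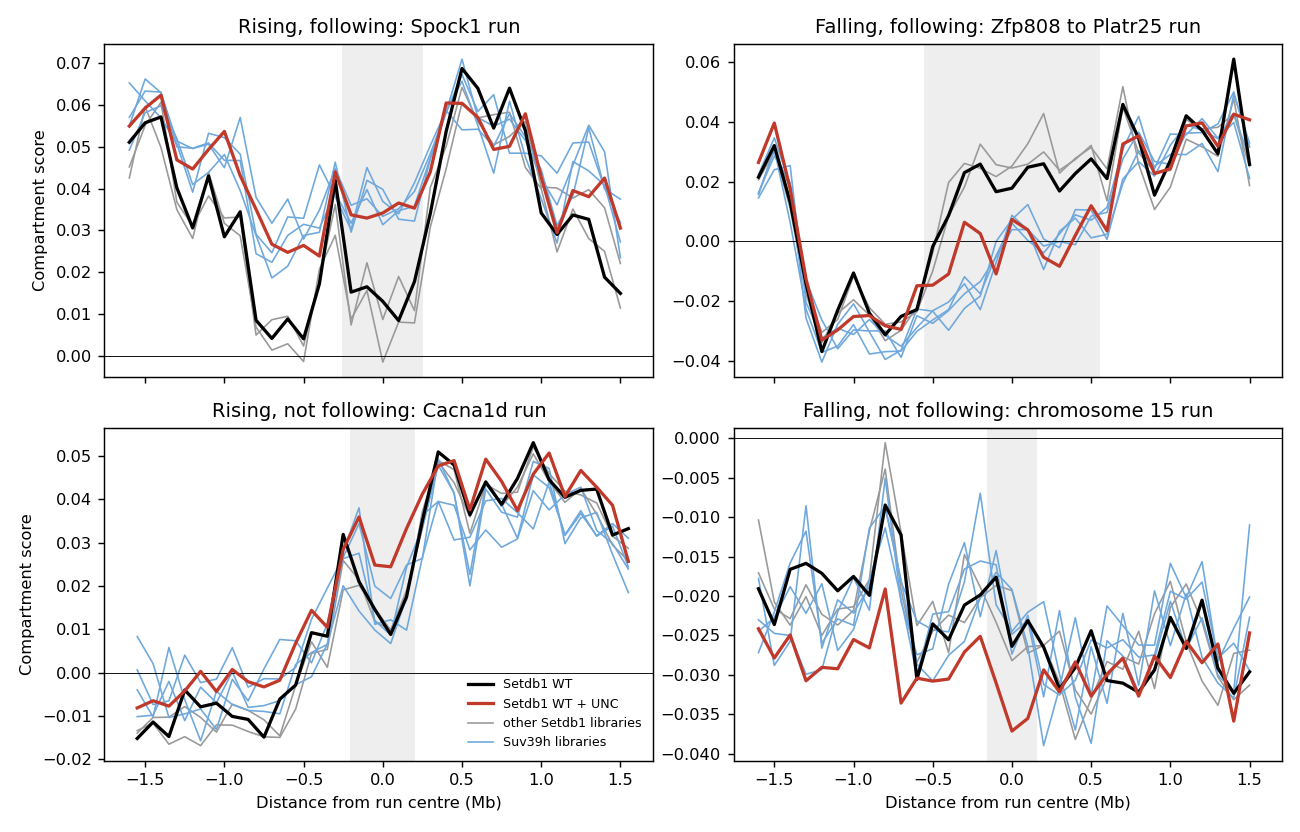
Compartment score (vertical axes) by distance from the centre of 4 named runs (horizontal axes, Mb), 1 line for each library, with the run shaded. In the Spock1 and Zfp808 to Platr25 runs the treated library (red) joins the Suv39h libraries (blue), whereas in the Cacna1d run and the chromosome 15 run its mean over the run lies outside all 7 other libraries.

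The changed bins were spread unevenly over chromosomes. On chromosome 13, 181 bins rose and 186 fell, 31.3% of its bins, and 222 of these 367 followed. Chromosome 18 had 76 rising and 89 falling bins (18.8%), of which 56 followed, and the shares were 14.6% on chromosome 9 and 13.9% on chromosome 19. Chromosome 2 had 1.01%. Chromosomes 13 and 18 together held 30.6% of the rising and 24.8% of the falling bins. The UNC0642 change exceeded 0.01 on chromosome 13 in 9.80% of bins in Setdb1 KO, 9.80% in Suv39h WT and 14.5% in Suv39h DKO, and the unused line difference in 34.4%, so large differences on this chromosome occurred in each of these comparisons. Without both chromosomes the line test still called 83 of 179 rising following bins (46.4%) and 225 of 325 falling following bins (69.2%), against 4.36% and 4.84% of all bins there, and 33 of 214 (15.4%) and 44 of 254 (17.3%) of those that did not follow.

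**Figure D4:**
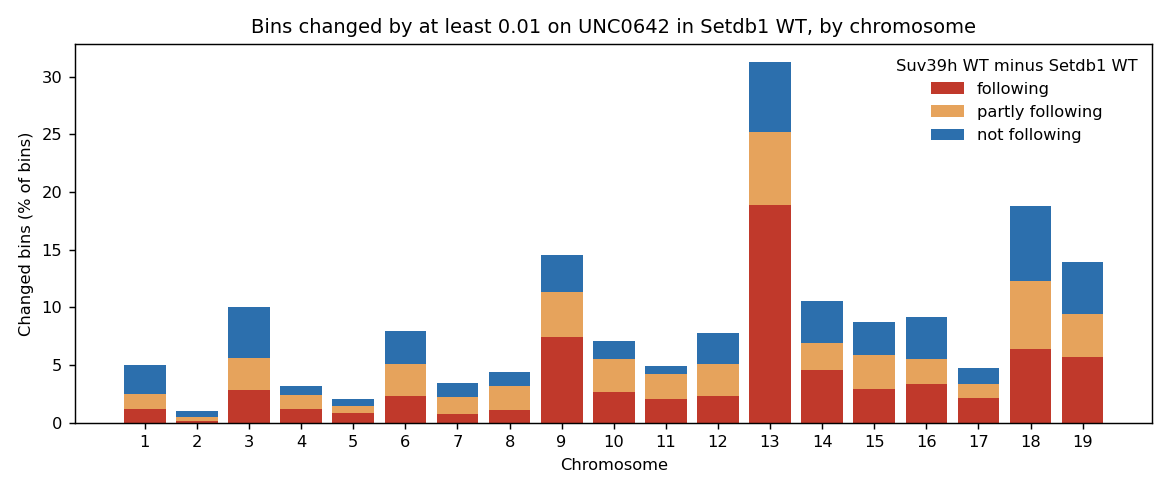
Changed bins as a percentage of all bins (vertical axis) on each autosome (horizontal axis), stacked by whether they follow Suv39h WT minus Setdb1 WT. Chromosome 13 stands highest at 31.3% and is mostly following, and chromosome 2 is lowest at 1.01%.

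The direction of the change was graded by repeat content. Bins were ranked by the soft-masked share of their sequence in the reference genome, which covers interspersed and simple repeats. In the lowest quintile (up to 23.8% masked) 8.24% of bins rose and 1.17% fell, with a median change of 0.00265. In the highest quintile (from 42.6% masked) 1.00% rose and 10.4% fell, with a median of -0.00176. The median change was higher in the repeat-poor than in the repeat-rich quintile on 19 of 19 autosomes, by 0.00170 to 0.00918. Rising bins had a median masked share of 24.1% and falling bins of 40.8%, against 31.6% over all bins, and the order was alike in bins that did not follow, with 25.8% and 40.5%.

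The gradient ran wider in the A than in the B compartment. With the compartment taken from the mean of the 2 unused Setdb1 libraries, 237 (32.1%) of the 738 repeat-rich A bins fell and 2 (0.271%) rose, with a median change of -0.00657. In the 3022 repeat-poor A bins 8.17% rose and 1.52% fell. In the B compartment 6.51% of the 4057 repeat-rich bins fell, and 8.35% of the 1773 repeat-poor bins rose. Over all bins, in A or B, the unused line difference was lower by at least 0.01 in 12.5% of the repeat-rich and 1.75% of the repeat-poor quintile. Among the repeat-rich A bins it was lower by as much in 34.96%, with a median of -0.00703, a share that is raised by taking these bins for high scores in 2 of the libraries it compares. With UNC0642, 7.18% of the repeat-rich A bins were lower by as much in Suv39h WT, 0.678% in Setdb1 KO and 10.98% in Suv39h DKO.

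GC content, genes and position varied with the change as well. Among bins of the highest GC quintile 5.26% rose and 1.25% fell, and of the lowest 0.709% rose and 4.57% fell. Rising bins held 0.486 protein-coding gene starts on average and falling bins 1.07, against 0.864 over all bins. Within 5 Mb of the chromosome start, where the mouse centromere lies, 21.9% of 375 bins fell and 1.07% rose. With UNC0642, 8.53% of these bins fell in Suv39h WT, 1.87% in Setdb1 KO and 8.80% in Suv39h DKO. The falling shares over all bins there were 2.53%, 0.934% and 3.69%. In Setdb1 WT the falling share was 13.4% at 5 to 10 Mb, 9.75% at 10 to 20 Mb and 2.08% beyond 80 Mb. A straight line fitted along each chromosome rose with distance from the start on 18 of 19 autosomes and took up a median of 4.35% of the variance of the change. The slope was positive on 15 autosomes for UNC0642 in Suv39h WT, 9 in Setdb1 KO and 12 in Suv39h DKO, and on 16 for the unused line difference. Beyond 20 Mb the repeat gradient remained, with 8.59% rising in the lowest and 7.60% falling in the highest repeat quintile. Fragment density also differed, with 8.41% falling in the quintile richest in GATC sites against 2.84% in the poorest, and its part in the result was not tested.

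**Figure D5:**
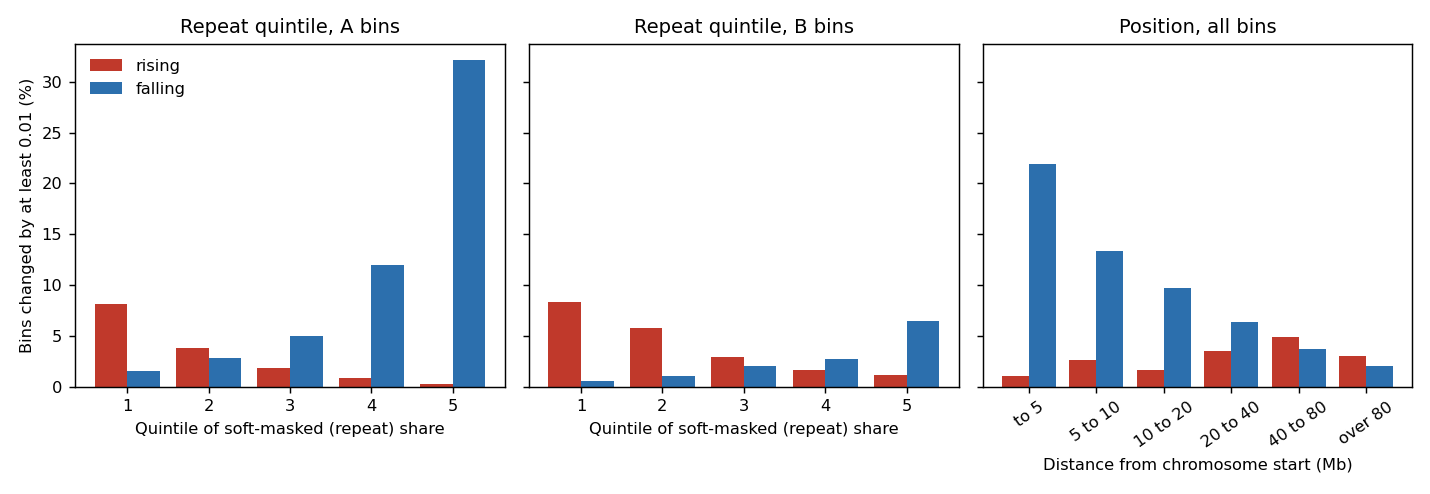
Percentage of bins rising (red) or falling (blue) by at least 0.01 (vertical axes) by quintile of repeat share in A bins and in B bins, and by distance from the chromosome start (horizontal axes). Falling bins reach 32.1% in repeat-rich A bins and 21.9% in the first 5 Mb.

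Changed bins were most frequent at scores from -0.0133 to 0.0290 in the unused Setdb1 libraries. With bins ranked by the mean score of the unused Setdb1 libraries, 4.86% rose and 6.99% fell in the middle quintile and 5.44% and 7.05% in the next. In the quintile of most negative scores 2.23% rose and 0.938% fell, and in that of highest scores 1.86% rose and 5.03% fell.

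Gene groups were read through the bin that holds each gene start, and bins shared by several genes were counted once. Over the 10037 bins with a protein-coding gene start 2.53% rose and 5.72% fell, with a median change of -0.000435. Pluripotency genes, which mark the cell type, lay in 20 bins, all of them A in Setdb1 WT before and 19 after UNC0642. No pluripotency bin rose and 2 fell, with a median of -0.00221. Dppa4, a chromatin regulator of the early embryo, went from 0.0218 to -0.000449, against 0.0127 and 0.0158 in Setdb1 KO and Setdb1 KO + UNC and 0.00584 to 0.0161 in the Suv39h libraries, and was the lowest of the 8. Zfp42, a marker of naive pluripotency, went from 0.0116 to 0.00140, and Klf4 and Esrrb, transcription factors of the naive state, changed by 0.00676 and 0.00670. The scores describe contacts and not expression levels. Genes of H3K9 methyltransferases, demethylases and HP1, with those of partner proteins such as Trim28, Atf7ip, Wiz and Zfp644, lay in 19 bins, of which 0 rose and 0 fell and all stayed A. Kdm4c, a demethylase gene, had the lowest change (-0.00664) and Setdb2, a methyltransferase gene, the highest (0.00588), and the bin of Ehmt2, which encodes G9a, went from 0.0566 to 0.0617.

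Genes of the 2-cell stage moved on the falling side where they moved. Of their 19 bins 4 fell and 0 rose, with a median of -0.00320, and the number of A bins was 7 in Setdb1 WT before and 3 after UNC0642. The Tdpoz genes, clustered on chromosome 3, account for 3 of the 4. The bin of Tdpoz3 scored 0.0103 in Setdb1 WT, 0.0258 in Setdb1 KO, 0.0171 in its UNC0642-treated counterpart, and -0.0144 in Setdb1 WT + UNC, against -0.00649, -0.00439, 0.00252 and -0.00388 in Suv39h WT, WT + UNC, DKO and DKO + UNC. The bin of Tdpoz4 changed by -0.0196. Setdb1 WT + UNC was the lowest library in both bins, and both were called lower in the unused Suv39h libraries (adjusted p 0.00203 for Tdpoz3 and 0.00153 for Tdpoz4).

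Germline genes and lineage regulators showed no common direction. Of 31 germline bins 2 rose and 1 fell, all following, with Tdrd1, a gene of the piRNA pathway, going from 0.0229 to 0.0370, Tdrd6 from 0.00625 to 0.0184 and Dmrt1, a regulator of testis development, from 0.0501 to 0.0393. Of 36 bins of lineage regulators 1 rose (Sox7, 0.0278 to 0.0406) and 1 fell (Gsc, 0.0388 to 0.0247). Of the genes the study assayed by qRT-PCR only Nlrp4c was matched to a scored bin (not Gm4971 or Tpd52l3). The bin of Nlrp4c went from 0.000692 to -0.00261.

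Olfactory and vomeronasal receptor, clustered Zfp, protocadherin and Hist1 bins fell more often than they rose. Outside Hist1 most of these bins changed by less than 0.01. For reference, 5.72% of bins with a gene start fell, and 10.4% of all bins in the highest repeat quintile. On chromosome 13 the falling share of all bins was 15.8%, and on chromosome 18 it was 10.1%. Olfactory receptor (Olfr) genes lay in 333 bins, of which 40 (12.0%) fell and 1 rose, with a median of -0.00165. The lowest was the bin of Olfr866 and Olfr868 on chromosome 9, which went from -0.000409 to -0.0278. The vomeronasal receptor genes fell in 11 of 94 Vmn1r bins (11.7%) and 10 of 92 Vmn2r bins (10.9%) and rose in 1 and 3. The A count of Vmn1r bins was 18 in Setdb1 WT before and 7 after UNC0642, and the bin of Vmn1r238 went from 0.0106 to -0.0190. Clustered Zfp genes fell in 5 of 24 bins, 4 of the 5 on chromosome 13, and protocadherin (Pcdh) genes in 5 of 19, 4 of the 5 on chromosome 18, and neither rose in any. These are the chromosomes with the largest shares of changed bins. The Hist1 genes, the main cluster of replication-dependent histone genes, fell in 6 of 7 bins with a median of -0.0148, all on chromosome 13, and stayed A. The bin of Hist1h2bq went from 0.0289 to 0.00916, against 0.0307 and 0.0411 in Setdb1 KO and Setdb1 KO + UNC, 0.0127 and 0.00874 in Suv39h WT and WT + UNC, and 0.0268 and 0.0234 in Suv39h DKO and DKO + UNC.

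In the keratin families more bins rose than fell, and most changed by less than 0.01. Krt and Krtap genes lay in 33 bins, of which 6 (18.2%) rose and 1 fell, with a median of 0.00347. The bin of Krt5, Krt71 and Krt72 on chromosome 15 went from 0.0114 to 0.0267, against 0.0137 and 0.0108 in Setdb1 KO and Setdb1 KO + UNC and 0.0181 to 0.0225 in the Suv39h libraries. Setdb1 WT + UNC was the highest of the 8 there, and the line difference missed the threshold (adjusted p 0.0588). Hox genes rose or fell in 0 of 9 bins, and defensin genes fell in 2 of 22 bins and rose in 0. The lists were chosen by name, neighbouring bins of a cluster are not independent, and none of these counts was tested against the genome.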

How the data were processed

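Hi-C was done by the authors with DpnII in mESCs, 1 set of scores for each of 8 groups. The authors aligned reads to mm10 with the 4DN Hi-C pipeline, kept alignments with mapping quality above 10, built matrices with Juicer Tools and deposited, as a score per 100-kb bin, the compartment score of each autosome's KR-normalised map. Per the study's methods Hi-C had repeats, and which of them each file holds is not given in the sources used here. The deposited scores carry no read counts, and the read numbers that the study lists for each repeat were not used here, since no file is tied to a repeat, so no error from depth is given. The files hold autosomes only.

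Scores were joined by bin and subtracted. A bin counted as changed at 0.01 or more, and as partly following from 0.005. Sequence features came from GRCm38, whose coordinates equal mm10, and genes from GENCODE. Tests used limma 3.58.1 in R 4.3.3 with Benjamini-Hochberg adjustment over 23972 bins at 0.05, and were tested on simulated scores, where the line test recovered 92% of differences of 0.02 with 15 false calls and 0% of 0.01. The p-values measure the spread between libraries that differ in genotype or treatment, not between repeats. Named regions were the 3 longest runs of at least 2 adjacent bins per direction and class, ties to the larger mean change, plus the largest single rise and fall, and from each gene list the 2 highest and 2 lowest changes. Members, classes and gene lists were chosen with earlier results of these data known. Alternatives were scaling to equal root mean square, quantile normalization, adding or subtracting the chromosome mean implied by unit length, means over 3 bins, a threshold of 0.02, other limma settings, leaving out libraries and, chosen after seeing the data, leaving out chromosomes 13 and 18 and removing a straight-line trend.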

Additional observations from a re-analysis of the deposited data

How the results depend on the processing

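No paired analysis was possible because the labels carry no replicate numbers to pair and each group has 1 set of scores. The interaction test took background, not a replicate, as its block. Means over 3 adjacent bins gave 353 rising (150 following, 124 partly, 79 not) and 628 falling bins (307, 193, 128). A threshold of 0.02, with the limit for partly following at 0.01, gave 30 rising (5, 18, 7) and 107 falling bins (38, 47, 22). Without chromosome 13, chosen after seeing the data, 194 rising bins followed, and without chromosomes 13 and 18, 179. Adding the implied chromosome mean gave 756 rising and 1179 falling bins, subtracting it 932 and 1038, and removing a straight-line trend, also chosen after seeing the data, 802 and 1007. Leaving out single libraries moved the upward calls of the line test from 139 to 1300 and the downward calls from 314 to 1276, and leaving out both libraries of a background moved the downward calls of the interaction test from 0 to 7, the 7 without Suv39h WT. Without the background block the interaction test had 446 bins at an unadjusted p under 0.05 and a lowest adjusted p of 1. All 48 recomputed changes of the named runs kept their direction and size class. Depth that could not be tied to the files, 1 library a group and the separate clones limit every count.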
